A study of Oryza sativa with 4 samples.

Results

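Palea transcriptomes of the rice rep1 mutant were compared with those of the Osmads6 mutant, gene by gene. The genes compared were the 20675 of 55986 in the deposited table whose mean over the 4 genotypes of the study was at least 1 FPKM (fragments per kilobase of transcript, a level scaled for gene length and sequencing depth). The rule used the mean level of a gene, to which both mutants contribute. A gene low in the other libraries could thus pass through the mutant in which it was high. The call of such a gene is tied to the rule, and how many genes passed in this way was not counted.

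A rice flower is closed in by a lemma on the outside and, facing it, a palea. In a mature spikelet both form the hull, whose cells divide, expand, green and then lay down cellulose, lignin and silica. MADS-box transcription factors act in combinations that give each floral organ its identity, and OsMADS6, of the AGL6-like group, is known for its part in palea and inner organ identity. REP1 encodes a CYCLOIDEA-like TCP transcription factor known for palea growth and cell identity.

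The rep1 sample came from a deletion mutant with the background given as japonica, and the Osmads6 sample from a line with an inserted Tos17 retrotransposon in Nipponbare. Values of an Osmads32 line with a T-DNA insertion in AF36 and of a wild type given as japonica stand beside them where they help. All plants were grown in a paddy field. The labels name no stage, date, number of plants or allele number for any of the 4, so genotype, background and stage cannot be told apart.

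GEO lists 1 sample per genotype and the table has 2 columns for each, taken here as 2 runs of 1 sample. There is thus no replicate check on any difference between the mutants, no test was made, and the 2 values given for a genotype show the spread between its runs only. The rep1 and Osmads6 runs held 36215500 to 39867408 recovered reads each. Runs of a genotype differed by 9.91 times the counting expectation in rep1 and 7.22 times in Osmads6 (median chi-square of a gene over its expectation). Between runs, 168 genes of rep1 and 77 of Osmads6 differed by at least 2-fold. The wild type runs lay further apart, at 34.5 times that expectation and with 477 genes at least 2-fold apart. Counts against wild type are less firm to that extent. The read totals and these ratios depend on a common factor per gene that is not known.

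The libraries go against their labels in part. The Osmads6-labelled library held 124 and 129.8 FPKM of OsMADS6, above the 12.5 and 14.4 FPKM of the library labelled wild type. What the inserted retrotransposon does to the transcript was not tested, and its position was not analysed here. The library labelled Osmads6 is called Osmads6 and the one labelled wild type wild type throughout, by their labels alone. Every comparison was also made between rep1 and the library labelled wild type, and its count is given beside a list's own where they differ by over 1.5 times in either direction. Both comparisons use the same rep1 library and are not independent.

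Markers of the labelled tissue were present in both mutants. Lemma and palea genes (OsMADS1, OsMADS6, OsMADS14, OsMADS15, REP1 and G1) summed to 1139 and 1256 FPKM in the rep1 runs and 739 and 722 FPKM in the Osmads6 runs, with REP1 and G1 near or at 0 in both. Without OsMADS6, which made up most of the rep1 sum, the others summed to 313 and 398 FPKM in the rep1 runs and 615 and 592 FPKM in the Osmads6 runs, the opposite order. In bulk tissue such as this, fewer cells of a type and less RNA per cell cannot be told apart.

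Over all genes, 2219 (10.7%) were at least 2-fold higher in rep1 than in Osmads6 and 3425 (16.6%) at least 2-fold lower, 5644 (27.3%) together. These counts use the ratio of mean FPKM with 1 FPKM added to each mean, on which "higher" and "lower" mean at least 2-fold whenever members are counted. For a single gene the fold is the plain ratio of mean FPKM, without the added 1. The runs of rep1 and Osmads6 did not overlap in 2216 of the higher and 3423 of the lower genes. At least 4-fold differences were found in 678 higher and 1031 lower genes, and at least 16-fold in 62 higher and 128 lower genes. A near absence in one mutant was rare: 21 genes had at least 10 FPKM in rep1 and under 0.1 FPKM in Osmads6, and 18 had under 0.1 FPKM in rep1 and at least 10 FPKM in Osmads6. Of all 6 pairs of genotypes this one had the most genes past 2-fold, the other 5 pairs ranging between 1065 and 3325. The correlation of log2(FPKM + 1) across genes between rep1 and Osmads6 runs was 0.778 to 0.779 (Pearson), against 0.987 between the rep1 runs and 0.990 between the Osmads6 runs; genes are not independent replicates and these values describe the libraries only. Counts of list members are set against the shares of all genes, 10.7% higher and 16.6% lower.

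The middle of the distribution lay below 0, with a median log2 ratio of -0.14 and 90% of genes between -1.996 and 1.67. Relative to that median, 2641 genes were at least 2-fold higher and 2887 lower, so that the higher ones made up 47.8% of the calls instead of 39.3%. Higher genes were more frequent among abundant transcripts. Where rep1 and Osmads6 averaged at least 100 FPKM, 217 of 924 genes (23.5%) were higher in rep1 and 142 (15.4%) lower, whereas between 1 and 5 FPKM 580 of 6461 (8.98%) were higher and 1079 (16.7%) lower. Among the 2219 higher genes Osmads32 and wild type both lay between rep1 and Osmads6 in 1514 (68.2%), and among the 3425 lower genes in 2490 (72.7%). These genes were chosen by their gap between rep1 and Osmads6, which by itself favours values in between. The share over all genes was not computed, so these shares are no result about the mutants.

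**Figure D1:**
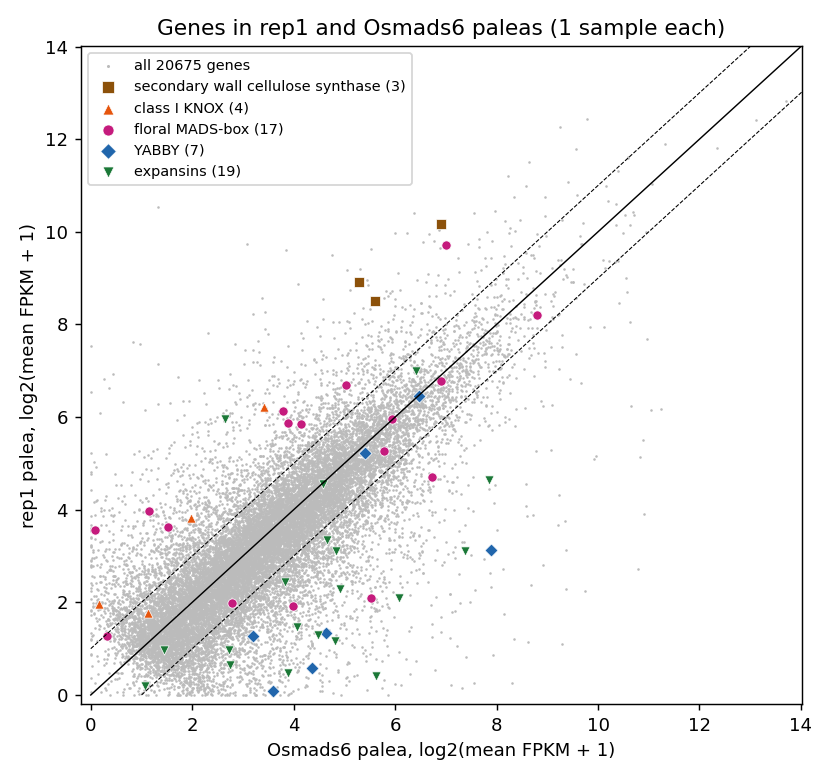
Mean level of each of the 20675 genes in rep1 (vertical) and Osmads6 (horizontal) palea as log2(FPKM + 1), 1 sample each; solid line, equal levels; dashed lines, 2-fold. The 3 secondary wall cellulose synthases lie above the upper dashed line, 5 of 7 YABBY genes and 14 of 19 expansins below the lower one, and floral MADS-box genes lie on both sides.

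**Figure D2:**
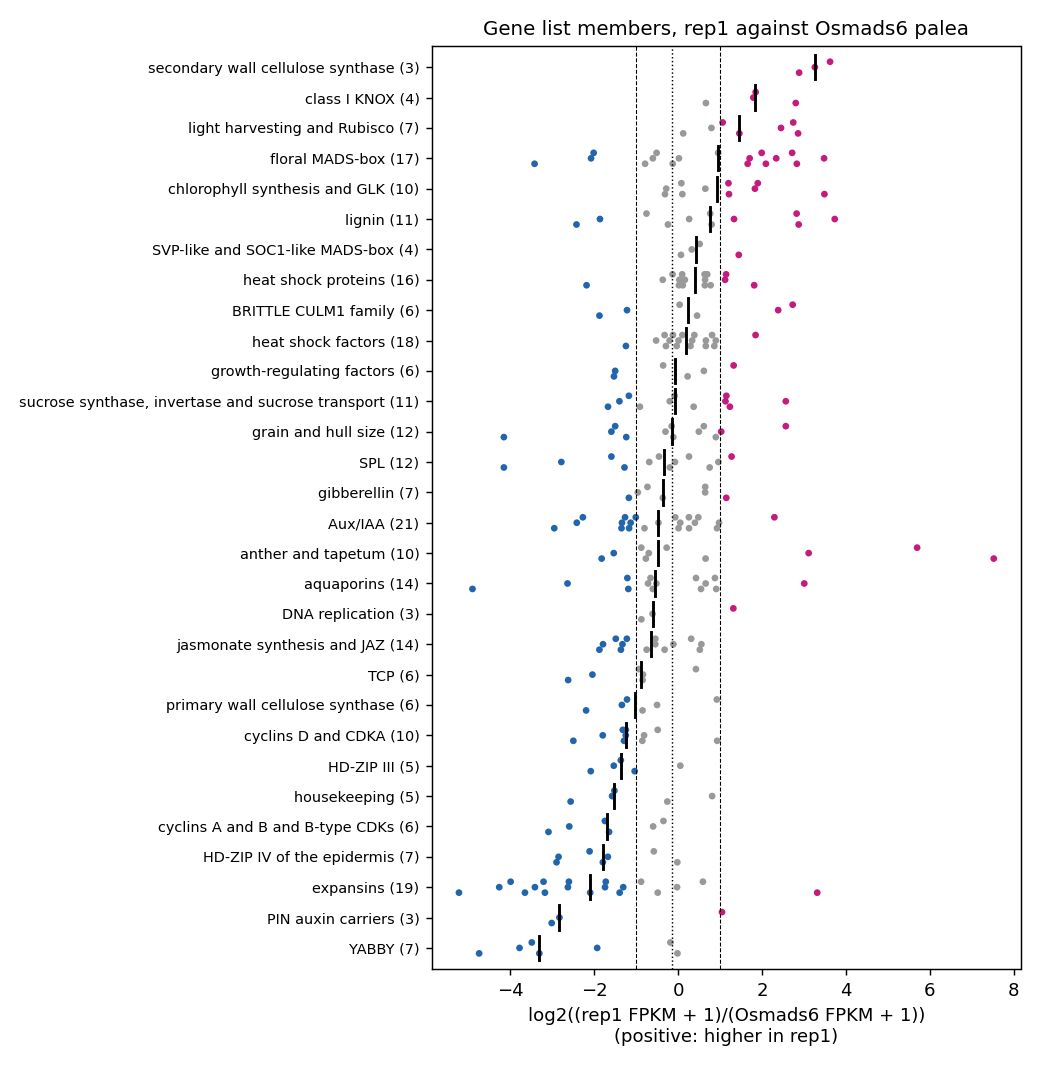
log2 ratio of rep1 to Osmads6, with 1 FPKM added, for each measured member of the gene lists with at least 3 measured (number in brackets); pink, at least 2-fold higher in rep1; blue, at least 2-fold lower; bars, list medians; dotted line, median of all genes at -0.14. Medians run between 3.26 for secondary wall cellulose synthases and -3.31 for YABBY genes.

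OsMADS6 itself (LOC_Os02g45770, chromosome 2) had 826 and 858 FPKM in rep1, against 124 and 129.8 FPKM in Osmads6, 6.62-fold higher in rep1. Its level was also above that of Osmads32 (257 and 267 FPKM), so rep1 held the highest level of the 4 libraries. REP1 (LOC_Os09g24480, chromosome 9) was close to the detection limit in every library, with 2 and 0 recovered reads in the rep1 runs and 4 and 6 in the Osmads6 runs. That is 0.0338 FPKM in rep1 against 0.1703 FPKM in Osmads6. The ratio of Osmads6 to rep1 was 5.03, with an exact 95% counting interval of 1.07 to 47.2. That interval takes the reads as independent, which was not tested, and its lower bound is close to 1. OsMADS32 (LOC_Os01g52680, chromosome 1), a floral MADS-box gene of the grasses, had 3.11 and 2.44 FPKM in rep1 and 14.6 and 15.3 FPKM in Osmads6, 5.37-fold lower in rep1, and it was not lowest in its own mutant (8.69 and 7.95 FPKM).

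Loci beside REP1 were read for the extent of a loss in rep1. The next locus by number had 0 reads in both rep1 runs, against 6 and 4 in the Osmads6 runs and 19 and 11 in the wild type runs. The third locus after REP1 had 0 and 3 reads in rep1, against 66 and 130 in Osmads6, while the locus between them was at 0 in all 8 runs. Outside these, the nearest locus on one side had 476 and 417 reads in rep1 and 348 and 372 in Osmads6, and on the other side 594 and 505 in rep1 and 376 and 292 in Osmads6. REP1 and the 2 detected loci next to it were thus at or near 0 in rep1, and the detected loci that flank them were not. REP1 and the next locus had few reads in the other libraries too, REP1 with 2 and 4 in the Osmads32 runs. None of the 3 reached the 1 FPKM limit, so they are outside the counts over genes.

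Floral MADS-box genes differed in both directions, 8 of 17 measured members being higher in rep1 and 3 lower, with a median log2 ratio of 0.95. Against wild type 7 were higher and 5 lower. Besides OsMADS6, the higher members were genes of the B, C, D and SEPALLATA-like classes. B-class genes, which act in lodicules and stamens, were higher: OsMADS16 had 109.9 and 94.9 FPKM in rep1 and 32.5 and 31 FPKM in Osmads6 (3.22-fold higher). OsMADS2 had 62.4 and 51.6 FPKM in rep1, against 18.1 and 15.5 FPKM in Osmads6 (3.39-fold higher), and OsMADS4 was 6.0-fold higher. OsMADS3, a C-class gene of stamens and carpels, had 14.4 and 15.1 FPKM in rep1 and 1.40 and 1.03 FPKM in Osmads6 (12.1-fold higher). Its partner OsMADS58 was low in both, with 1.73 and 1.13 FPKM in rep1 and 0.3504 and 0.1597 FPKM in Osmads6, and did not reach 2-fold after the pseudocount.

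OsMADS13, a D-class gene of ovule identity, had the largest log2 ratio of the list (3.48). It had 10.2 and 11.5 FPKM in rep1, against 0.123 and 0 FPKM in Osmads6, where it was nearly undetected: the ratio was 176 with an exact 95% counting interval of 59.99 to 857. Osmads32 also held this transcript (17.4 and 19.6 FPKM) and the wild type hardly did (0.423 and 0.691 FPKM). With DL, OsMADS58 and OsMADS21, the other carpel and ovule markers, it summed to 12.5 and 13.5 FPKM in the rep1 runs and 22.1 and 17.8 FPKM in the Osmads6 runs, since DL (below 1 FPKM in rep1) ran the other way.

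The SEPALLATA-like genes, whose products join the other classes in complexes, divided into opposite groups. OsMADS8 had 70.9 and 67.9 FPKM in rep1 and 12.4 and 13.5 FPKM in Osmads6 (5.37-fold higher), and OsMADS7 was 4.20-fold higher. OsMADS5 went the other way, with 3.46 and 3.10 FPKM in rep1, against 43.1 and 46.7 FPKM in Osmads6 (13.7-fold lower). For OsMADS5 the other libraries were near Osmads6, with 43.7 FPKM in Osmads32 and 47.2 FPKM in wild type. OsMADS1, the main lemma and palea member, had 249 and 337 FPKM in rep1 and 454 and 436 FPKM in Osmads6, within 2-fold. OsMADS34, at 2.58 and 3.39 FPKM in rep1 and 5.26 and 6.50 FPKM in Osmads6, was within 2-fold as well.

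Among the APETALA1/FRUITFULL-like genes, OsMADS15, known for palea development, had 25.1 and 25.1 FPKM in rep1 and 104 and 105 FPKM in Osmads6 (4.16-fold lower). OsMADS14 (37.5 FPKM in rep1, 53.9 FPKM in Osmads6) and OsMADS18 (61.4 FPKM in rep1, 60.5 FPKM in Osmads6) were within 2-fold. So was OsMADS17, the closest relative of OsMADS6, at 109 and 109.6 FPKM in rep1 and 116 and 123 FPKM in Osmads6. Outside the floral classes OsMADS50, a SOC1-like gene that promotes flowering, was 3.41-fold higher (8.43 and 8.70 FPKM in rep1, 2.71 and 2.31 FPKM in Osmads6), 1 of 4 measured SVP-like and SOC1-like genes, against 0 higher than in wild type. Close MADS-box relatives can share reads, and single values are uncertain to that extent.

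YABBY genes, which mark lateral organs and their outgrowth, were the list with the lowest median (-3.31): 5 of 7 were lower in rep1 and 0 higher. YAB1 had 8.57 and 7.07 FPKM in rep1, against 222 and 249 FPKM in Osmads6 (30.1-fold lower). DL (DROOPING LEAF), known for carpel identity and leaf midribs, had 0.617 and 0.381 FPKM in rep1 and 21.6 and 17.6 FPKM in Osmads6 (39.3-fold lower). In both genes every library but rep1 was in the upper range, with wild type at 289.7 and 369 FPKM for YAB1 and 24.5 and 13.6 FPKM for DL. YAB5, also called TONGARI-BOUSHI1 and known for spikelet organ growth, had 0.137 and 0 FPKM in rep1 and 10.99 and 11 FPKM in Osmads6. Its ratio of Osmads6 to rep1 was 161, with an exact 95% counting interval of 77.8 to 401. YAB3 (1.83 and 1.22 FPKM in rep1, 22.3 and 25.7 FPKM in Osmads6) was 15.8-fold lower and YAB4 5.81-fold lower. These 3 genes were highest in Osmads6 of the 4 libraries. YAB2 and YAB6 did not follow: YAB2 had 86.8 and 86.7 FPKM in rep1 and 85.04 and 90.4 FPKM in Osmads6, and YAB6 31.8 and 40.7 FPKM in rep1 and 39.1 and 43.5 FPKM in Osmads6. Among members averaging at least 5 FPKM over the 4 genotypes, 3 of 5 were lower.

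Class I KNOX homeobox genes, which keep cells of the meristem undifferentiated, stood opposite: 3 of 4 were higher in rep1 and 0 lower (median 1.82). OSH43 had 73.7 and 72.5 FPKM in rep1, against 9.02 and 10.2 FPKM in Osmads6 (7.61-fold higher). OSH71 had 13.5 and 12.8 FPKM in rep1 and 2.55 and 3.29 FPKM in Osmads6 (4.49-fold higher), and OSH1, the gene of meristem maintenance, had 2.83 and 2.92 FPKM in rep1 and 0.129 and 0.108 FPKM in Osmads6 (24.3-fold higher). Rep1 was the highest of the 4 libraries for each of these. OSH1 passed the filter on low values only through its rep1 level, with 1.37 FPKM in Osmads32 and 0.305 FPKM in wild type. Its count as higher is therefore tied to the filter. OSH3 was within 2-fold with 1 FPKM added, and OSH6 and OSH15 were under the filter on low values. All 6 KNOX genes summed to 94.99 and 92.1 FPKM in rep1, 13.7 and 15.97 FPKM in Osmads6 and 28.6 and 23.6 FPKM in wild type. Of the other regulators of flower and panicle meristems listed, FON1 alone was measured (4.48 FPKM in rep1, 3.76 FPKM in Osmads6).

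TCP genes other than REP1 were lower or within 2-fold, with 2 of 6 lower in rep1 and 0 higher. PCF6 had 1.25 and 1.45 FPKM in rep1 and 8.86 and 8.50 FPKM in Osmads6 (6.44-fold lower). PCF5 had 0.563 and 0.786 FPKM in rep1 and 8.86 and 9.76 FPKM in Osmads6 (13.8-fold lower). Against wild type 1 of them, PCF6, was lower.

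HD-ZIP III genes, which specify the upper side of lateral organs and vascular tissue, were lower in rep1 in 4 of 5 members (median -1.37). HOX33 had 2.18 and 3.81 FPKM in rep1 and 15.98 and 15.9 FPKM in Osmads6 (5.32-fold lower). HOX9 was 3.0-fold lower and HOX10 2.69-fold lower. Against the wild type library 2 of 5 were lower.

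Of the auxin efflux carriers 2 of 3 were lower and 1 higher. PIN1A had 8.27 and 7.64 FPKM in rep1, against 61.2 and 64.1 FPKM in Osmads6 (7.88-fold lower), and PIN3A 2.55 and 3.09 FPKM in rep1 and 29.4 and 30.3 FPKM in Osmads6 (10.6-fold lower). Osmads6 was the highest library for both, with 14.9 FPKM of PIN1A in wild type. The third measured carrier, PIN1C, was higher in rep1 at a low level (2.50 FPKM in rep1, 0.694 FPKM in Osmads6). PIN1C passed the filter on low values only through its rep1 level, so its count as higher is tied to the filter. Against wild type 0 carriers were higher and 1, PIN3A, lower. Aux/IAA genes, repressors of auxin response and a list added after first values were seen, were lower in 9 and higher in 1 of 21 (median -0.47), the rest being within 2-fold. The list summed to 1292 FPKM in rep1 and 1234 FPKM in Osmads6, so its summed level was slightly higher in rep1. IAA13 had 23.4 and 23.4 FPKM in rep1 and 123 and 135 FPKM in Osmads6 (5.52-fold lower), IAA30 was 5.05-fold lower and IAA8 17.2-fold lower. IAA3 was the exception, at 475 and 484 FPKM in rep1, against 99.1 and 94.5 FPKM in Osmads6 (4.95-fold higher). Against wild type 4 Aux/IAA genes were lower.

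Of cyclins A and B and B-type cyclin-dependent kinases, which drive mitosis, 4 of 6 measured members were lower in rep1 and 0 higher (median -1.70). CYCB2;1 had 0.463 and 0.245 FPKM in rep1 and 10.9 and 10.2 FPKM in Osmads6 (29.8-fold lower). CDKB1;1 had 2.41 and 3.52 FPKM in rep1 and 23.1 and 22.9 FPKM in Osmads6 (7.74-fold lower). Both were higher in the other 3 libraries than in rep1, and 2 members were lower in rep1 than in wild type. A further 5 were under the filter on low values.

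D-type cyclins, which act at the entry into the cell cycle, and CDKA were lower in 6 of 10 (median -1.25). CYCD4;1 had 2.42 and 1.69 FPKM in rep1, against 16.7 and 15.9 FPKM in Osmads6 (7.91-fold lower), and CYCD6;1 was 4.21-fold lower. Against wild type 0 of the 10 were lower and 1 higher, with a median of -0.57. The list summed to 66.2 FPKM in rep1, 145 FPKM in Osmads6, 108 FPKM in Osmads32 and 97.02 FPKM in wild type, so rep1 was the lowest of the 4 libraries and Osmads6 the highest. Of 10 replication genes 3 passed the filter, 1 being higher in rep1 and 0 lower (median -0.61). The higher one was MCM9, 2.60-fold higher in rep1 (36.5 and 31.5 FPKM in rep1, 12.8 and 13.4 FPKM in Osmads6). PCNA (12.2 FPKM in rep1, 19.1 FPKM in Osmads6) and MCM7 (0.446 FPKM in rep1, 1.65 FPKM in Osmads6) went the other way. Both were within 2-fold with 1 FPKM added. The 7 members under the filter each had a lower mean in rep1 than in Osmads6.

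Cellulose synthase genes differed by the type of wall, with exceptions among those of primary walls. Rice CESA4, CESA7 and CESA9 make the cellulose of secondary walls, and 3 of 3 were higher in rep1 (median 3.26). CESA4 had 1024 and 1266 FPKM in rep1, against 117 and 121 FPKM in Osmads6 (9.65-fold higher). CESA9 had 488 and 471 FPKM in rep1 and 37.6 and 38.5 FPKM in Osmads6 (12.6-fold higher), and CESA7 was 7.52-fold higher. Osmads32 and wild type lay between rep1 and Osmads6 for each, with CESA4 at 629 and 690.1 FPKM in Osmads32 and 530.3 and 350.2 FPKM in wild type.

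Primary wall cellulose synthases, which serve growing cells, were lower in 3 of 6 (median -1.03). CESA6 had 54.5 and 48.9 FPKM in rep1 and 256 and 224 FPKM in Osmads6 (4.65-fold lower), CESA1 was 2.55-fold lower and CESA5 2.36-fold lower. CESA3 did not follow, at 222 and 245 FPKM in rep1 and 123 and 123 FPKM in Osmads6, within 2-fold. Members of the CESA family are similar in sequence and their reads can be shared.

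Expansins, which loosen growing walls, were lower in 14 of 19 measured members and higher in 1, a median of -2.10. EXPB16 had 0.275 and 0.363 FPKM in rep1, against 46.3 and 50.5 FPKM in Osmads6 (152-fold lower). EXPA7 had 9.74 and 5.63 FPKM in rep1 and 169.9 and 162 FPKM in Osmads6 (21.6-fold lower), and EXPA16 4.18 and 2.32 FPKM in rep1 and 61.3 and 72.2 FPKM in Osmads6 (20.5-fold lower). Osmads6 was the highest library for all 3, and 11 expansins were also lower in rep1 than in wild type. EXLA1 differed from the rest, with 59.2 and 63.6 FPKM in rep1, against 4.93 and 5.60 FPKM in Osmads6 (11.7-fold higher). A further 11 of 30 were under the filter.

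Lignin genes were divided by member. Their list counted 4 higher and 2 lower of 11 (median 0.77), with 4 higher and 1 lower against wild type. COMT1, a methyltransferase of monolignol synthesis, had 2889 and 2972 FPKM in rep1, against 392 and 406 FPKM in Osmads6 (7.35-fold higher). 4CL3, a 4-coumarate:CoA ligase, had 1059.6 and 952 FPKM in rep1 and 76.6 and 72.8 FPKM in Osmads6 (13.5-fold higher), and CAD2, the cinnamyl alcohol dehydrogenase of the gold hull mutant, 322 and 320.5 FPKM in rep1 and 39.8 and 49.2 FPKM in Osmads6 (7.22-fold higher). CAD3 was 7.81-fold lower and 4CL5 3.84-fold lower. In the BRITTLE CULM1 family of COBRA-like wall proteins, BC1 had 62.2 and 49.1 FPKM in rep1 and 10.1 and 9.58 FPKM in Osmads6 (5.65-fold higher) and BC1L2 was 7.20-fold higher, whereas BC1L9 was 3.89-fold lower (12.7 and 11.7 FPKM in rep1, 48.6 and 46.3 FPKM in Osmads6). The family counted 2 higher and 2 lower of 6, and 1 was lower against wild type. The 7 genes taken as markers of the hardened hull (the 3 secondary wall CESA, BC1, COMT1, CAD2 and 4CL3) were chosen with earlier results known and hold none of the lower members of these lists, so their direction is no result. They summed to 6212 and 6386 FPKM in the rep1 runs, 723 and 742 FPKM in the Osmads6 runs and 2476 and 2013 FPKM in the wild type runs.

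**Figure D3:**
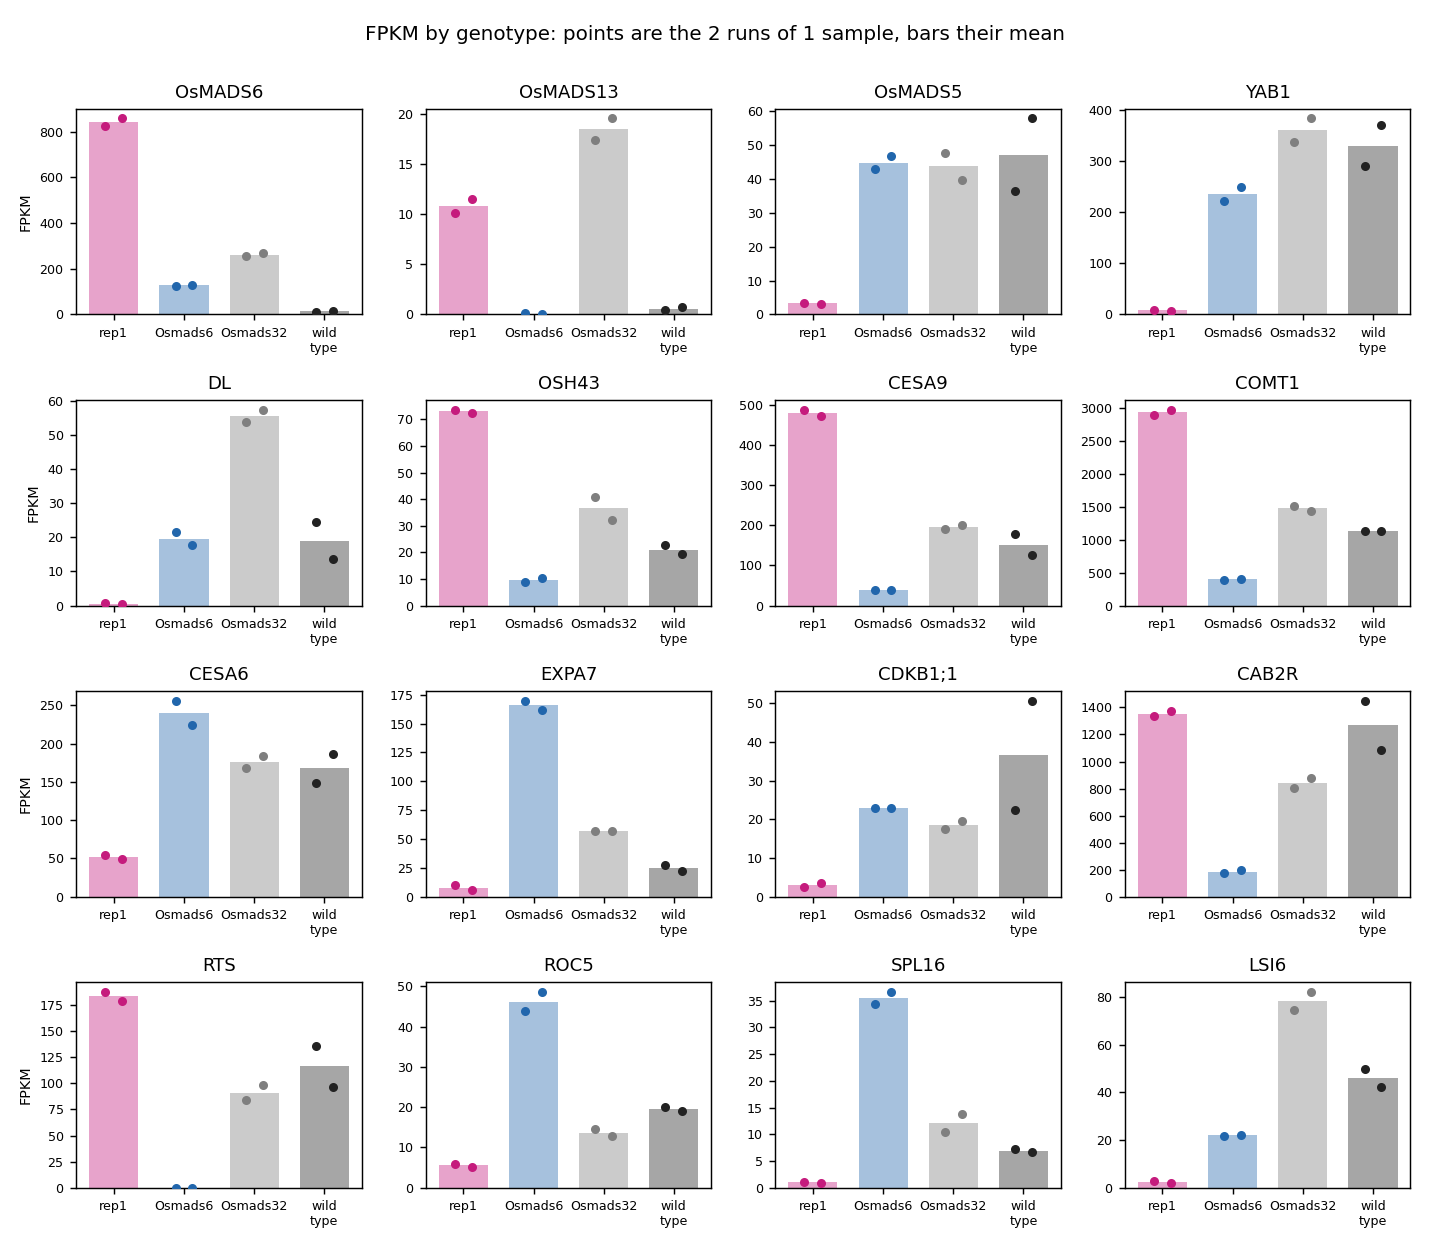
FPKM of 16 genes in rep1, Osmads6, Osmads32 and wild type palea; points, the 2 runs of the 1 sample per genotype; bars, their mean. CESA9 and COMT1 are highest in rep1 and lowest in Osmads6, YAB1 and DL are low in rep1 only among these libraries, and CAB2R and RTS are low in Osmads6.

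Photosynthesis genes were higher in rep1 than in Osmads6 or within 2-fold. Of light-harvesting and Rubisco genes 5 of 7 were higher and 0 lower (median 1.46). CAB2R, a chlorophyll a/b-binding protein gene, had 1336 and 1374 FPKM in rep1, against 172 and 199.7 FPKM in Osmads6 (7.29-fold higher). CAB1R was 5.52-fold higher and RCABP89 6.80-fold higher. In chlorophyll synthesis 5 of 10 were higher and 0 lower. PORA, a protochlorophyllide reductase, had 274 and 217 FPKM in rep1 and 20.4 and 21.5 FPKM in Osmads6 (11.7-fold higher). The chloroplast regulator GLK1 was 4.76-fold higher and CHLH, a subunit of magnesium chelatase, 3.76-fold higher. Osmads32 was low for these 3 as well, with 43.3 and 44.7 FPKM of PORA, 1.29 and 1.59 FPKM of GLK1, under the 2.39 and 2.93 FPKM of Osmads6, and 16.98 and 19.8 FPKM of CHLH. Against the library labelled wild type 0 members of either list were higher in rep1 and 1 of each (RBCS-A and GLK1) was lower, and the median of the light-harvesting and Rubisco list was -0.35. CAB2R, for one, had 1450.4 and 1087 FPKM in wild type. The 11 markers of photosynthetic tissue summed to 3126 and 3004 FPKM in rep1, 567 and 646 FPKM in Osmads6, 1796 and 1862 FPKM in Osmads32 and 3829.6 and 2754 FPKM in wild type.

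Of the anther genes, 3 of 10 were far higher in rep1. RTS, an anther gene of the tapetum, had 188 and 179 FPKM in rep1 and no read in either Osmads6 run, at least 1493-fold higher in rep1 against a floor of 3 reads per run. OsC6, a tapetal lipid transfer protein gene, had 80.5 and 78.5 FPKM in rep1 and 0.831 and 0.271 FPKM in Osmads6 (144-fold higher). RAFTIN1, which codes for an anther protein of the pollen coat, had 18.5 and 23.3 FPKM in rep1 and 1.93 and 1.14 FPKM in Osmads6 (13.6-fold higher). These genes were present in the other libraries, RTS with 83.9 and 98.3 FPKM in Osmads32 and 136 and 96.5 FPKM in wild type, and Osmads6 was the one that held little or none. The list as a whole did not move one way: 2 members were lower, the median was -0.49 and the mean 1.10. MSP1, a receptor kinase of early anther development, was 4.26-fold lower (3.91 and 3.08 FPKM in rep1, 14.8 and 15.02 FPKM in Osmads6). Against wild type 0 members were higher in rep1 and 1 lower. The list summed to 310.2 and 303 FPKM in rep1, 50.3 and 51.9 FPKM in Osmads6 and 252 and 249 FPKM in wild type, and stamen and lodicule genes (OsMADS2, OsMADS3, OsMADS4 and OsMADS16) to 198 and 173 FPKM in rep1, 54.1 and 49.2 FPKM in Osmads6 and 98.7 and 75.5 FPKM in wild type. The part of other floral tissue in the differences between the libraries was not tested.

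Epidermal regulators of the HD-ZIP IV class were lower in 5 of 7 members and higher in 0 (median -1.79). ROC5, known for bulliform cells of the leaf, had 5.97 and 5.13 FPKM in rep1, against 43.8 and 48.6 FPKM in Osmads6 (8.33-fold lower). ROC8 was 13-fold lower and ROC6 4.64-fold lower. The class summed to 47.5 and 47.3 FPKM in rep1, 173 and 192 FPKM in Osmads6 and 62.8 and 63.6 FPKM in wild type. Osmads6 was the high library here, and ROC5 alone (19.97 and 19.01 FPKM in wild type) was also lower in rep1 than in wild type. LSI6, a silicon transporter, had 2.71 and 2.20 FPKM in rep1 and 21.9 and 21.96 FPKM in Osmads6 (8.95-fold lower). For LSI6, Osmads32 (74.7 and 82.2 FPKM) and wild type (49.7 and 42.1 FPKM) were above both rep1 and Osmads6.

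Genes known for grain and hull size did not share a direction, 2 of 12 being higher and 4 lower. SPL16, the gene of the GW8 grain width locus, had 1.14 and 0.9598 FPKM in rep1, against 34.4 and 36.6 FPKM in Osmads6 (33.8-fold lower). SPL13, the gene of the GLW7 grain length locus, was 3.07-fold lower, and DWARF, a brassinosteroid oxidase gene, 2.57-fold lower. CIN2, a cell wall invertase gene of grain filling, was 7.42-fold higher (25.7 and 23.4 FPKM in rep1, 3.09 and 3.53 FPKM in Osmads6), and D11, a cytochrome P450 gene of brassinosteroid synthesis, 2.18-fold higher. Against wild type 0 were higher and 1, SPL16, lower. Over the SPL family 4 of 12 were lower and 1 higher (median -0.33), with SPL13 and SPL16 counted in both lists. SPL14, known from the ideal plant architecture locus, was 2.98-fold lower and SPL4 2.81-fold higher; against wild type 0 SPL genes were higher and 2 lower. Growth-regulating factors stood at 1 higher (GRF3, 2.70-fold higher) and 2 lower of 6 (GRF6, 3.52-fold lower), with 0 higher and 0 lower against wild type.

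Jasmonate synthesis and JAZ repressor genes were lower in 6 of 14 and higher in 0 (median -0.65). TIFY11B, a JAZ repressor, had 35.4 and 28.9 FPKM in rep1 and 115 and 113 FPKM in Osmads6 (3.54-fold lower). TIFY11A was 2.92-fold lower and AOS1, an allene oxide synthase gene, 2.75-fold lower. Against wild type 2 members were lower. Gibberellin genes were near the shares of all genes, with 1 of 7 higher (GID2, an F-box gene of gibberellin signalling, 2.23-fold higher) and 1 lower, and 0 higher and 0 lower against wild type.

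Heat shock proteins were mostly within 2-fold, 3 of 16 being higher and 1 lower (median 0.40). HSP17.9B was 3.54-fold higher (416 and 369 FPKM in rep1, 106 and 116 FPKM in Osmads6), HSP18.6 2.44-fold higher and HSP26.2 5.26-fold lower. With the second rep1 run alone 1 member was higher. Against wild type 0 members were higher and 10 lower, so the choice of library decides this list. Heat shock factors differed in 1 higher (HSFB1, 3.69-fold higher) and 1 lower of 18, under the shares of all genes, whereas 4 were lower against wild type. Housekeeping genes were not level: ACT1 had 207 and 229.9 FPKM in rep1, against 629.5 and 627 FPKM in Osmads6 (2.88-fold lower), ACT2 was 6.0-fold lower and GAPC2 2.99-fold lower, while TUBA1 and REFA1 were within 2-fold.

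Aquaporins and genes of sucrose use were lists added after first values were seen. Aquaporins, the water channels, were lower in 4 of 14 and higher in 1, but single members differed widely. NIP1;1 had 18.9 and 19.05 FPKM in rep1, against 573 and 619 FPKM in Osmads6 (31.4-fold lower). PIP2;6 had 118 and 106 FPKM in rep1 and 681 and 719 FPKM in Osmads6 (6.27-fold lower), and PIP2;3 was 2.45-fold lower. TIP4;1 was the opposite case, with 289 and 245 FPKM in rep1 and 32.04 and 32.7 FPKM in Osmads6 (8.26-fold higher). Against wild type 0 aquaporins were higher and 2 lower. Of sucrose synthases, invertases and sucrose transporters 4 of 11 were higher, among them SUS2 (2.22-fold higher) and SUS4 (2.42-fold higher), and 3 lower, among them the transporters SUT4 (3.40-fold lower) and SUT2 (2.32-fold lower). CIN2 is among the higher ones here too. Against wild type 1 of the higher genes, SUS4, was higher and 1 of the lower genes, SUT2, lower.

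The extremes outside the lists were loci without a paired symbol. LOC_Os05g33150 had 1683 and 1278 FPKM in rep1, against 1.02 and 1.98 FPKM in Osmads6, 985-fold higher, with 190.0 FPKM in Osmads32 and 36.3 FPKM in wild type. LOC_Os07g44250 had 196 and 195 FPKM in rep1 and 0.627 and 0.914 FPKM in Osmads6, 254-fold higher. At the other end, LOC_Os10g05820 had 1.14 and 1.15 FPKM in rep1, against 648 and 605 FPKM in Osmads6, 548-fold lower. LOC_Os10g05930 had 3.83 and 7.32 FPKM in rep1 and 1661 and 1857 FPKM in Osmads6, 316-fold lower. Both loci of chromosome 10 were nearer to Osmads6 in the other libraries, with 223 FPKM of the first and 1112 FPKM of the second in wild type.

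These 2 low loci lie in 1 stretch. Sliding along the measured loci of each chromosome in windows of 25, a window held a median of 4 lower and 2 higher genes. On chromosome 10 a window with both loci held 15 lower genes, the most of 20361 windows, and its lower genes summed to 472 FPKM in rep1, 11131 FPKM in Osmads6 and 6663 FPKM in wild type. Next came a window on chromosome 1 with 14 lower genes (67.9 FPKM in rep1, 682 FPKM in Osmads6). The most higher genes in a window were 11, once on chromosome 5 and once on chromosome 7. By whole chromosome the shares were even, between 8.97% and 12.9% higher, and lower in 536 of 2963 genes on chromosome 1 and 220 of 1555 on chromosome 7, the chromosomes with the highest and the lowest share. Neighbouring loci can be copies of one another and share reads.

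**Figure D4:**
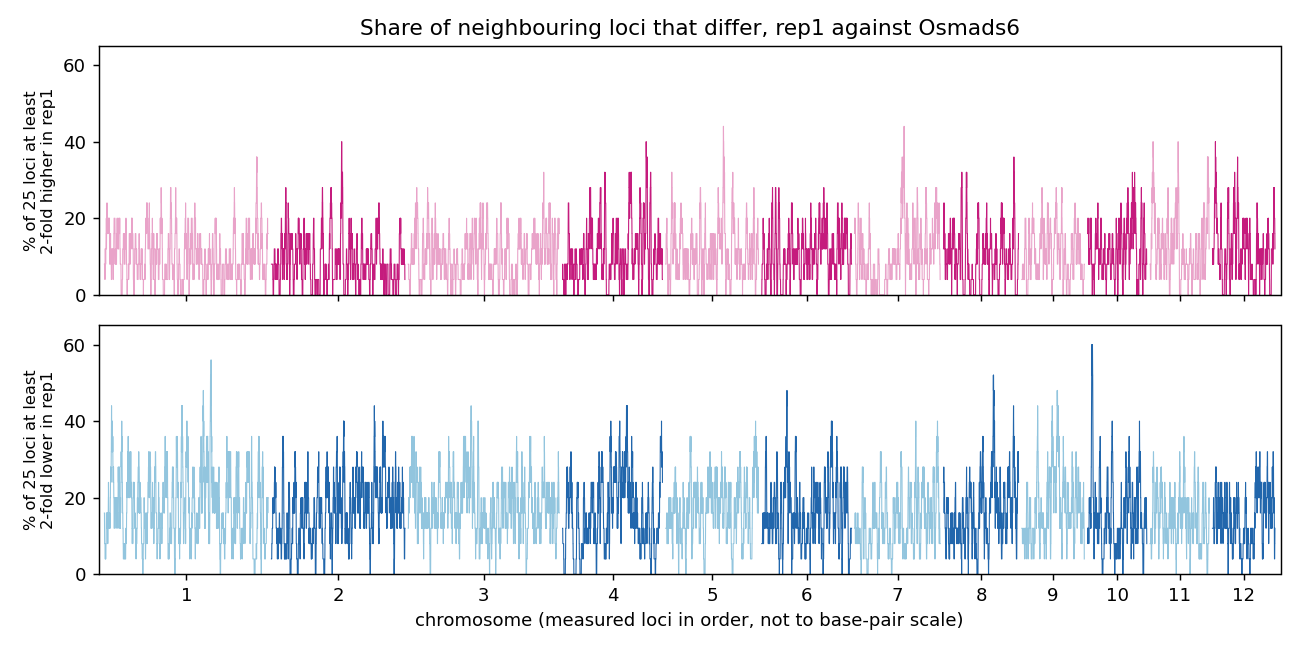
Percent of 25 neighbouring measured loci at least 2-fold higher (upper panel) or lower (lower panel) in rep1 than in Osmads6, for windows moved 1 locus at a time along the 12 chromosomes. The highest peak, 60% lower, is on chromosome 10.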

How the data were processed

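Palea RNA of 4 rice genotypes was sequenced, with messenger RNA enriched before library preparation per the labels' protocols. The deposited table gives FPKM values, made by the authors, for 55986 locus IDs in 8 columns, 2 per genotype; the build is IRGSP 1.0, per the submitters' processing notes. Which aligner, counter, strand setting and annotation were used is not given in the sources used here. GEO lists 1 sample per genotype, so the 2 columns were taken as runs of 1 sample (n = 1), their mean was used, and no test was made. No source says whether separate plants gave the runs.

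The FPKM steps of 44686 genes (99.9% of those above 0) gave whole reads, to within 0.02 reads, and so 36215500 to 53262671 reads per run; 27 genes with no whole reads took 6.68% to 9.20% of a run's FPKM. Read counts of a gene are known but for a common factor, so the reads per run and the chi-square ratios between runs depend on that factor. The floor of 3 reads per run behind a value of 0 and the exact (Clopper-Pearson) 95% intervals cover counting error only. Both take the reads as independent, which was not tested. The read recovery and the 2-fold counts were tested on simulated data.

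The measure was log2((rep1 FPKM + 1)/(Osmads6 FPKM + 1)) for genes averaging 1 FPKM or more over all 4 genotypes; the pseudocount understates differences of low genes. The members and gene lists were chosen with earlier results of these data known, and 3 of the 32 lists were added after their first values were seen. Symbols were matched to locus IDs by published nomenclature; 360 of 393 pairs passed a check of chromosome and order against the RefSeq gene table of assembly ASM3414082v1, and only these were used, besides OsMADS32 and REP1, which are targeted genes. Named were the targeted genes, MADS-box, YABBY and KNOX members past 2-fold, up to 3 members each way of the other lists with a mean of at least 5 FPKM, and the 2 most extreme loci each way. Named after their values were seen were OsMADS1, OsMADS14, OsMADS17, OsMADS18, OsMADS34, OsMADS58, YAB2, YAB6, OSH3, OSH6, OSH15, FON1, G1, PCF5, PIN1C, PCNA, MCM7, CESA3, RBCS-A, TUBA1 and REFA1. Lists of KANADI, cuticle, histone and secondary wall regulator genes were not run. Python 3.11.15, numpy 2.4.6, pandas 2.3.3 and scipy 1.17.1 were used.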

Additional observations from a re-analysis of the deposited data

How the results depend on the processing

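With 1 sample per genotype these alternatives bear on the processing only. Leaving out each run in turn gave 2220 to 2298 higher and 3441 to 3603 lower genes, and 1 to 3 heat shock proteins higher. Median-ratio rescaling gave 2673 higher and 2871 lower genes, and no filter on low values 2400 and 3684; a pseudocount of 0.1 FPKM gave 2659 and 4260. A 4-fold threshold left 678 higher and 1031 lower genes. A minimum mean of 5 FPKM left 2279 lower genes, 3 lower YABBY genes and 2 lower cyclins A and B and B-type CDKs. Centring the log2 ratios on their median was chosen after seeing the data.

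Exchanging the columns labelled wild type and Osmads6 moved 19 of 31 list counts by over 1.5 times, each list being counted in the direction with more members (higher where equal). It left 1060 higher and 1815 lower genes. Members higher in rep1 became 0 for light harvesting and Rubisco, chlorophyll synthesis, anther and tapetum, heat shock protein, gibberellin and SVP-like and SOC1-like genes, and 1 for sucrose genes. Members lower became 0 for D-type cyclins and growth-regulating factors, 1 each for HD-ZIP IV, grain size, TCP and PIN genes, 2 each for HD-ZIP III, cyclins A and B, SPL, jasmonate and aquaporin genes, and 4 for Aux/IAA genes. In the other direction, 4 heat shock factors were lower instead of 1. The median log2 ratio of light harvesting and Rubisco genes reversed to -0.35. A further 28 list medians changed in size without reversing, and 3 were counted as unchanged. Of 96 named genes 9 reversed: CAB1R (-0.44), GLK1 (-1.12), CHLH (-0.081), OsC6 (-0.13), CIN2 (-0.32), HSP18.6 (-0.82), MSP1 (0.16), DWARF (0.54) and PIP2;3 (0.30). The other 87 kept their side of 0, but 84 of them changed in size and only 3 were counted as unchanged. Windows of 50 loci gave 40% lower at most, reached on chromosome 9 as well as on chromosome 10. No paired analysis was possible because each genotype has 1 sample and no test was made.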
